A study of Mus musculus with 12 samples.

Results

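The genes described here make ribosomes: 52 listed genes that transcribe ribosomal RNA (rRNA) in the nucleolus, process and modify it, and fold it into the small and large ribosomal subunits. They were found by gene symbol in the platform annotation of the arrays. Of the 52, 50 had a named probe set, and all 50 had a mean linear value of at least 0.1 of the array mean, the minimum for testing, so that 50 of the 15309 genes tested and of the 19938 genes measured belong to this list. *Npm3* and *Noc2l* were not analysed here, since no probe set carries their symbol in that annotation. The 50 genes were well expressed in these cells, with mean levels of 1.49 to 10.4 times the array mean (median 3.44) beside a median of 0.486 over all genes tested.

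Mouse embryonic stem (ES) cells of 2 lines were treated with siRNAs and measured on 12 Affymetrix arrays, 6 after *Kdm6a* RNAi and 6 after control RNAi. PGK12.1 is a female line derived from 129 and PGK mice, and it was measured in 4 experiments: *Kdm6a* RNAi with 100 pmol of siRNA for 48 h and then 400 pmol for 24 h (double RNAi, experiments 1 and 2), *Kdm6a* RNAi with 100 pmol for 48 h (single RNAi, experiments 3 and 4), and as the control of each experiment negative control siRNAs under the same schedule. WD44 is a male line from BL6 mice, and it was measured in 2 experiments, each with single *Kdm6a* RNAi and its own control. All cells were undifferentiated, kept in LIF and taken off their embryonic fibroblast feeders before transfection. The lines differ in both sex and strain, which cannot be told apart, and the spread between experiments may be partly technical, since separate cultures are not stated for each array of WD44.

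Ribosome production starts when RNA polymerase I, brought to the rRNA genes by UBTF, the SL1 factor and RRN3, makes a long precursor. Small nucleolar RNAs (snoRNAs) in box C/D and box H/ACA particles guide its methylation and pseudouridylation, the small subunit processome cuts out the 18S rRNA, and large subunit factors such as the PeBoW complex build the other subunit. ES cells divide quickly and have large nucleoli, and many of these genes are known targets of MYC. KDM6A removes methyl groups from lysine 27 of histone H3.

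No gene of the list passed the test after *Kdm6a* RNAi in either line, and confidence intervals give a range for each change on these arrays. The log2 change is the *Kdm6a* RNAi value minus the control value of the same experiment, tested with limma (a linear model that shares spread information among genes) at a Benjamini-Hochberg adjusted p of 0.05 over all genes. In PGK12.1, 0 of 50 were called higher and 0 lower, where 3.71% of all genes tested were called higher and 2.1% lower. In WD44 the counts were 0 and 0, as they were for all genes (0% in each direction). At an unadjusted p under 0.05 by limma, 2 of 50 (4%) stood out in PGK12.1 beside 22.6% of all genes, and 4 of 50 (8%) in WD44 beside 16.1% of all genes. After adjustment, the methods' paired t-test called 0 genes of the list in either line and direction, and 0 of all genes. At an unadjusted p under 0.05 that test gave 9 of 50 genes in PGK12.1, beside 16% of all genes, and 2 of 49 in WD44, beside 5.86% of all genes (genes with equal changes in both WD44 experiments have no such test). Limma with its trend and robust options called *Rrn3* higher in PGK12.1 (7.19% of all genes were called so) and *Rrs1* lower in WD44 (0.0653% of all genes).

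The targeted gene itself was lower on every *Kdm6a* RNAi array. In PGK12.1, *Kdm6a* had log2 values of 8.10, 8.07, 8.61 and 10.90 in *Kdm6a* RNAi cells of experiments 1 to 4, against 9.37, 9.57, 10.03 and 11.86 in control cells, which is 58.6% ± 7.14 lower (SD, n = 4; adjusted p = 0.000293). In WD44, it had 10.35 and 10.37 in *Kdm6a* RNAi cells, against 11.29 and 11.29 in control cells, 47.5% ± 0.515 lower (SD, n = 2; adjusted p = 0.13). Array medians lay at 6.15 to 6.21 (PGK12.1 experiments 1 and 2), 6.47 to 6.48 (experiment 3), 8.20 to 8.21 (experiment 4) and 8.03 to 8.08 (WD44), so levels were compared only within an experiment. ES cell markers were high on all arrays, with summed levels of 73.9 to 98.1 times the array mean in *Kdm6a* RNAi and 74.2 to 100.4 in control cells of PGK12.1, and 60.9 to 63.2 in *Kdm6a* RNAi and 61.7 to 63.8 in control cells of WD44; of these 10 markers *Utf1* was the 1 called, lower in PGK12.1 (-0.22, adjusted p = 0.0248). Of 14 fibroblast markers, 10 reached the minimum level, and *Postn*, *Lum* and *Fap* lay below it. Summed over the list, PGK12.1 had 2.02 to 2.81 in *Kdm6a* RNAi and 1.96 to 2.82 in control cells, while WD44 had 2.74 to 2.87 in *Kdm6a* RNAi and 2.52 to 2.65 in control cells. In WD44, 9 of the 10 had a mean change above 0, beside 47.6% of all genes, and none was called (largest 0.27 for *Col6a3*, adjusted p = 0.196 by limma). Of the 10, 4 had an unadjusted p under 0.05 by limma, beside 16.1% of all genes. The part of these markers in the values below was not tested. In bulk samples, fewer cells of a type and less RNA per cell cannot be told apart.

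**Figure D1:**
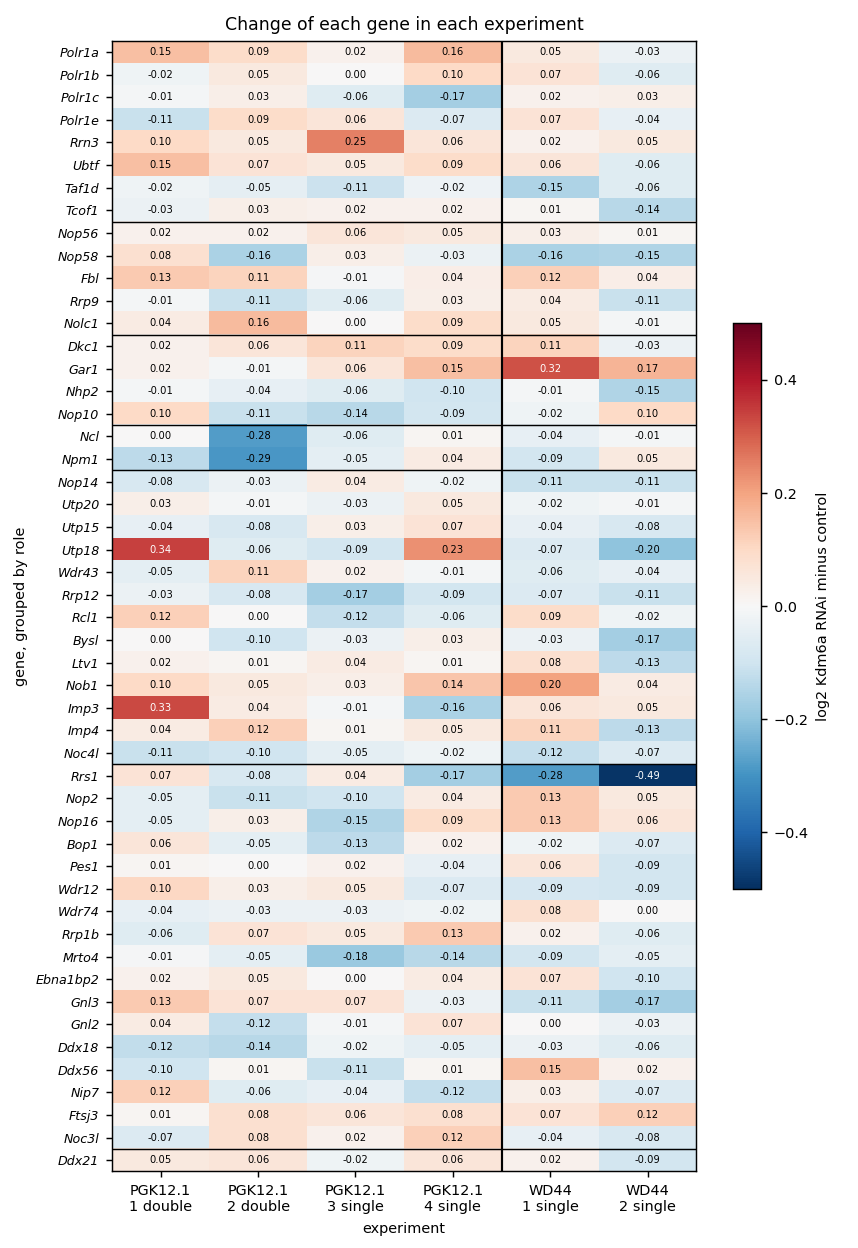
Log2 change (*Kdm6a* RNAi minus control) of the 50 ribosome biogenesis genes (rows, grouped by role in the order of the text) in the 4 PGK12.1 and 2 WD44 experiments (columns). Color runs from blue (lower after *Kdm6a* RNAi) to red (higher), and 9 of the 300 values lie beyond 0.2 in either direction.

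Most values were close to 0. Of the 300 single changes (50 genes in 6 experiments), 9 lay beyond 0.2 on the log2 scale, a fold of 1.15, and they came from 7 genes: *Utp18*, *Imp3*, *Npm1*, *Ncl*, *Rrn3*, *Gar1* and *Rrs1*. By experiment that is 2% to 4% of the list, beside 10.8% to 22.9% of all genes tested, most of which were expressed at a lower level (the part of level in this gap was not tested). The list's median change was 0.015, 0.005, -0.0025 and 0.025 in PGK12.1 experiments 1 to 4 and 0.02 and -0.06 in WD44 experiments 1 and 2, beside 0.01, 0.03, 0.02, 0.00, 0.01 and -0.02 for all genes. The lowest of these is WD44 experiment 2, in which 36 of 50 genes were below 0, beside 8198 of all 15309 genes tested. Averaged over experiments, the median was -0.004 in PGK12.1 (from -0.11 for *Npm1* to 0.115 for *Rrn3*) and -0.0175 in WD44 (from -0.385 for *Rrs1* to 0.245 for *Gar1*), beside 0.0075 and -0.005 for all genes. With each array centered on its median the list's medians were -0.02375 in PGK12.1 and 0.0275 in WD44, and in WD44 the median was 0.02 without experiment 2, so the sign of medians this small depends on scaling and on single experiments.

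**Figure D2:**
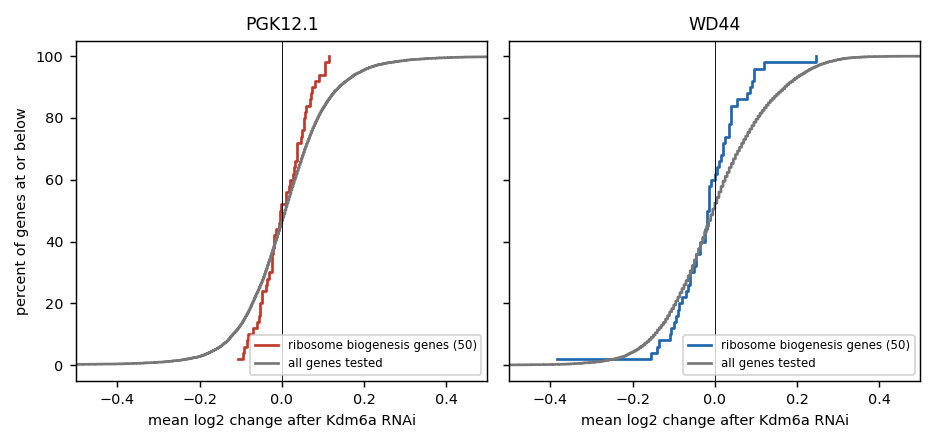
Cumulative share of genes (vertical axis, percent) at or below a given mean log2 change after *Kdm6a* RNAi (horizontal axis), for the 50 ribosome biogenesis genes (colored steps) and all 15309 genes tested (gray), in PGK12.1 and WD44. For PGK12.1 the colored steps span -0.11 to 0.115, and for WD44 they span -0.385 to 0.245, while the gray curves reach past the axis on both sides.

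The confidence intervals show, gene by gene, what size of array change could have been missed. They are not set to hold for all 50 genes at once. In PGK12.1, the 95% intervals of all 50 genes lay inside ±0.3 (a fold of 1.23) and those of 44 inside ±0.2, with a median width of 0.10 to either side, beside 88.2% and 58.2% of all genes tested inside these bounds. The exceptions at ±0.2 were *Polr1a*, *Rrn3*, *Ncl*, *Npm1*, *Utp18* and *Imp3*. In WD44, 46 of 50 intervals lay inside ±0.3 and 49 inside ±0.5 (a fold of 1.41), with *Nop58*, *Gar1*, *Utp18* and *Rrs1* beyond the first bound and *Rrs1* beyond the second. Of all genes tested, 68.8% lay inside the first bound in WD44 and 97.3% inside the second, so that at ±0.5 the list was close to all genes. Both lines share 1 estimate of the spread. For WD44 the intervals and p-values thus draw mostly on PGK12.1 and on the spread shared among all genes.

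**Figure D3:**
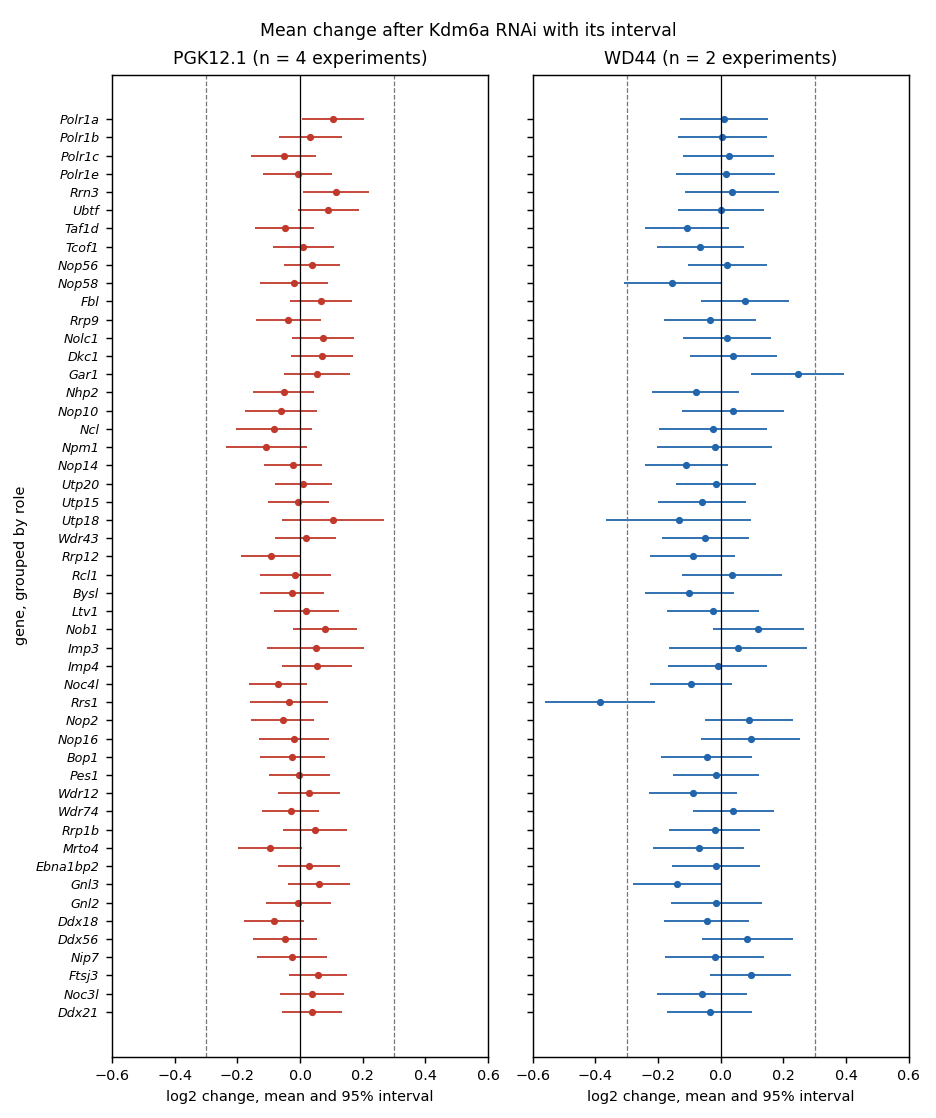
Mean log2 change after *Kdm6a* RNAi (point) with its 95% confidence interval from limma (line) for each of the 50 genes, in PGK12.1 (left, n = 4 experiments) and WD44 (right, n = 2). Dashed lines mark ±0.3, which all 50 intervals in PGK12.1 and 46 of 50 in WD44 stay within.

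The 2 genes of the list with an unadjusted p under 0.05 by limma in PGK12.1 were RNA polymerase I genes. They are 2 of the 8 in this group (25%), close to the 22.6% of all genes. *Rrn3*, the factor that links the polymerase to the rRNA promoter, had log2 values of 11.51, 11.49, 11.93 and 12.57 in *Kdm6a* RNAi cells of PGK12.1, against 11.41, 11.44, 11.68 and 12.51 in control cells. It was higher in 4 of 4 experiments, most in experiment 3 (0.25, against 0.05 to 0.10 in the others), with a mean of 0.115 ± 0.09 (SD, n = 4), or 8.3% higher, and an adjusted p of 0.184 by limma (0.0297 with trend and robust options, the lowest under any setting). In WD44 the changes of *Rrn3* were 0.02 and 0.05. *Polr1a*, the largest subunit of the polymerase, had 10.14, 10.14, 10.67 and 11.74 in *Kdm6a* RNAi cells of PGK12.1, against 9.99, 10.05, 10.65 and 11.58 in control cells. This too was higher in 4 of 4 experiments, by a mean of 0.105 (adjusted p = 0.195), while WD44 gave 0.05 and -0.03. *Ubtf*, which binds along the rRNA genes, had differences of 0.15, 0.07, 0.05 and 0.09 in PGK12.1 (mean 0.09, adjusted p = 0.255) and of 0.06 and -0.06 in WD44.

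None of the other 5 genes of this group was higher in 4 of 4 PGK12.1 experiments. *Polr1b*, the second large subunit, had a mean change of 0.03 in PGK12.1, and *Polr1e*, a subunit particular to polymerase I, of -0.0075. *Polr1c*, a subunit shared with polymerase III, had -0.01, 0.03, -0.06 and -0.17 (mean -0.05). *Tcof1*, the nucleolar scaffold treacle, stayed within -0.03 to 0.03 in all PGK12.1 experiments and had 0.01 and -0.14 in WD44. *Taf1d*, a subunit of the SL1 factor, was below 0 in all 6 experiments as the average of its probe sets, though not in each probe set. Its mean was -0.05 in PGK12.1 and -0.11 in WD44 (adjusted p = 0.414 by limma). *Taf1d* was read by 9 probe sets, of which 4 hold the same values, and their means in WD44 ran from -0.295 to 0.005, so its change depends on the probe set. Over the 8 genes the median change was 0.02 in PGK12.1 and 0.0075 in WD44.

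**Figure D4:**
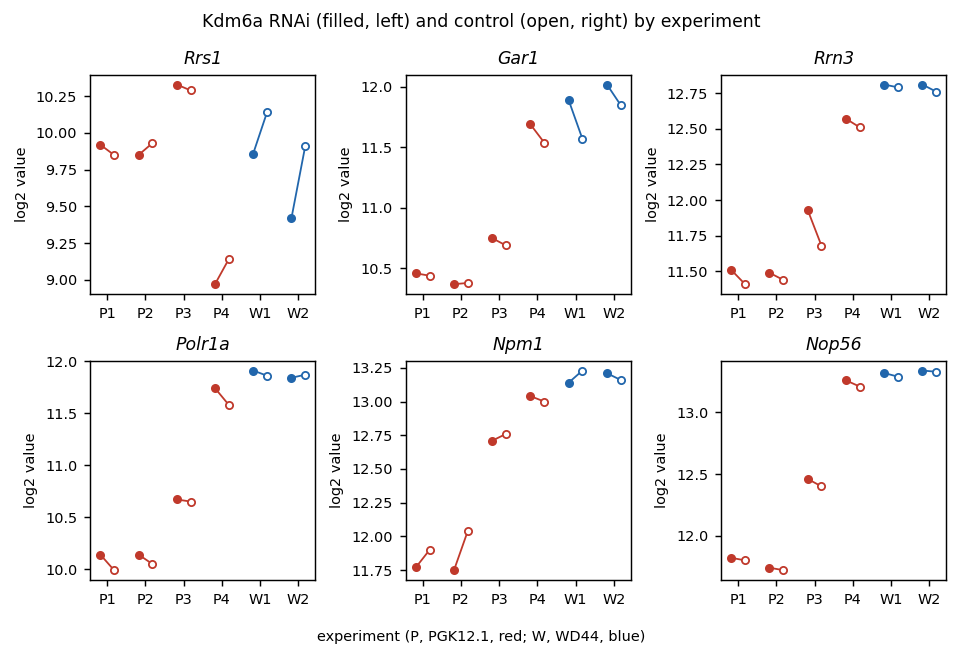
Log2 values of 6 genes on each array, with the *Kdm6a* RNAi value (filled, left) joined to the control value (open, right) of its experiment, for PGK12.1 experiments 1 to 4 (P, red) and WD44 experiments 1 and 2 (W, blue). *Rrs1* has its widest gaps in WD44 (-0.28 and -0.49), *Rrn3* and *Polr1a* are higher in *Kdm6a* RNAi cells in all 4 PGK12.1 experiments, and *Nop56* is nearly level in all 6; vertical scales differ between panels.

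The box C/D core, which carries the methyltransferase that modifies rRNA, had values of both signs. *Fbl*, the methyltransferase itself, had changes of 0.13, 0.11, -0.005 and 0.035 in PGK12.1 and 0.12 and 0.035 in WD44. Its 2 probe sets gave means of 0.0375 and 0.0975 in PGK12.1 and 0.005 and 0.15 in WD44. *Nop56*, a core protein of the same particle, was among the steadiest genes, at 0.02, 0.02, 0.06 and 0.05 in PGK12.1 and 0.03 and 0.01 in WD44. *Nop58*, its partner, measured 11.96 and 11.85 in *Kdm6a* RNAi cells of WD44, against 12.12 and 12 in control cells. *Nop58* was thus below its control in both WD44 experiments, with a mean of -0.155 (adjusted p = 0.309), and in PGK12.1 the mean was -0.02 with both signs. *Rrp9*, the protein particular to the U3 snoRNP, averaged -0.04 in both lines, and *Nolc1*, a chaperone of snoRNPs, averaged 0.07 in PGK12.1 (adjusted p = 0.375) and 0.02 in WD44.

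Among the 4 proteins of the box H/ACA particle, which makes pseudouridine, *Gar1* had the largest value in the male line. It measured 11.89 and 12.02 in *Kdm6a* RNAi cells of WD44, against 11.57 and 11.85 in control cells. *Gar1* was above its control in both experiments, with changes of 0.32 and 0.17 and a mean of 0.245, or 18.5% higher (adjusted p = 0.18 by limma, 0.057 to 1 over the alternatives). In PGK12.1 the changes of *Gar1* were 0.02, -0.01, 0.06 and 0.15. *Dkc1*, the X-linked pseudouridine synthase, was above 0 in 4 of 4 PGK12.1 experiments (0.02, 0.06, 0.11 and 0.09, adjusted p = 0.385) and had 0.11 and -0.03 in WD44. *Nhp2* was below 0 in all 6 experiments (mean -0.05 in PGK12.1 and -0.08 in WD44), and *Nop10* had both signs in each line.

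*Ncl* and *Npm1*, the abundant nucleolar proteins nucleolin and nucleophosmin, had their lowest change in the same experiment. In PGK12.1, *Npm1* had 11.77, 11.75, 12.71 and 13.04 in *Kdm6a* RNAi cells, against 11.90, 12.04, 12.76 and 13.00 in control cells. *Ncl* had 11.98, 11.92, 12.71 and 13.38 in *Kdm6a* RNAi cells, against 11.98, 12.20, 12.77 and 13.37 in control cells. The largest gaps of both genes were in experiment 2 (-0.29 for *Npm1* and -0.28 for *Ncl*), and the other changes lay between -0.13 and 0.04. Their means over PGK12.1 were -0.11 (adjusted p = 0.312) and -0.08 (adjusted p = 0.413), and in WD44 both were within -0.09 and 0.05. *Npm1* was 1 of 3 genes with an unadjusted p under 0.05 after double RNAi (mean -0.21, adjusted p = 0.122).

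The 13 genes of small subunit processing had a median of 0.01 in PGK12.1 and -0.05 in WD44. In WD44, 10 of 13 means were below 0, beside 50.6% of all genes. *Imp3*, which binds U3 snoRNA, and *Utp18*, a processome subunit, varied most between experiments. *Imp3* had 10.35, 10.22, 11.22 and 12.25 in *Kdm6a* RNAi cells of PGK12.1, against 10.02, 10.18, 11.23 and 12.41 in control cells, that is 0.33 in experiment 1 and -0.16 in experiment 4. *Utp18* had changes of 0.34, -0.06, -0.09 and 0.23 there and of -0.07 and -0.20 in WD44. Their SDs over the 4 experiments were 0.205 and 0.213, beside 0.008 to 0.14 for the other 48 genes. *Nob1*, the nuclease that makes the end of 18S rRNA, was above 0 in all 6 experiments (mean 0.08 in PGK12.1 and 0.12 in WD44, adjusted p = 0.34 and 0.392). *Rrp12*, which acts in export of the subunits, and *Noc4l* were below 0 in all 6, with means of -0.09 and -0.07 in PGK12.1 and -0.09 and -0.095 in WD44. The means of *Nop14*, *Utp20*, *Utp15*, *Wdr43*, *Rcl1*, *Bysl*, *Ltv1* and *Imp4* lay between -0.025 and 0.055 in PGK12.1 and between -0.11 and 0.035 in WD44.

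Of the 17 measured genes of large subunit assembly, *Rrs1* had the largest change of the whole list. RRS1 is known in yeast to help bring the 5S rRNA particle into the large subunit. *Rrs1* measured 9.86 and 9.42 in *Kdm6a* RNAi cells of WD44, against 10.14 and 9.91 in control cells. It was below its control in both experiments, with changes of -0.28 and -0.49 and a mean of -0.385, or 23.4% lower (95% interval -0.56 to -0.21). Limma gave an adjusted p of 0.164, which became 0.0442 once trend and robust options were set. In PGK12.1 the *Rrs1* changes were 0.07, -0.08, 0.04 and -0.17, with a mean of -0.035 ± 0.11 (SD, n = 4).

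*Gnl3*, which encodes nucleostemin and is known for its high level in stem cells, was the other gene of this group with an unadjusted p under 0.05 in WD44. It had 12.19 and 12.08 in *Kdm6a* RNAi cells of WD44, against 12.30 and 12.25 in control cells (mean -0.14, adjusted p = 0.309), and changes of 0.13, 0.07, 0.07 and -0.03 in PGK12.1. The PeBoW complex stayed near 0: *Pes1* averaged -0.0025 in PGK12.1 and -0.015 in WD44, *Bop1* -0.025 and -0.045, and *Wdr12* 0.03 and -0.09. *Wdr12*, *Ddx18* and *Mrto4* were each read by 2 probe sets, whose means differed by at most 0.04 in either line. *Ddx18*, an RNA helicase, and *Mrto4*, related to a ribosomal stalk protein, were below 0 in all 6 experiments as the average of their probe sets. This did not hold for each probe set by itself. In PGK12.1, *Mrto4* averaged -0.095 (adjusted p = 0.255 by limma) and *Ddx18* -0.08 (adjusted p = 0.284 by limma). *Ftsj3*, an rRNA methyltransferase, was above 0 in all 6 (mean 0.06 in PGK12.1 and 0.095 in WD44). *Nop2*, an rRNA methyltransferase, *Nop16* and *Ddx56* averaged 0.085 to 0.095 in WD44 and -0.055 to -0.02 in PGK12.1. The remaining 6 genes (*Wdr74*, *Rrp1b*, *Ebna1bp2*, *Gnl2*, *Nip7* and *Noc3l*) had means from -0.03 to 0.05 in PGK12.1 and from -0.06 to 0.04 in WD44. *Ddx21*, a helicase of rRNA transcription and processing, averaged 0.04 and -0.035.

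The sign of the change was the same in all 4 PGK12.1 experiments for 16 of 50 genes (32%; 9 above and 7 below 0), beside 26.9% of all genes tested. In WD44 it was the same in both experiments for 30 of 50 (60%; 11 above and 19 below 0), beside 64.3%. Over all 6 experiments, *Rrn3*, *Nop56*, *Nob1* and *Ftsj3* were above 0 and *Taf1d*, *Nhp2*, *Rrp12*, *Noc4l*, *Mrto4* and *Ddx18* below it, 10 of 50 (20%) beside 7.81% of all genes. For *Taf1d*, *Mrto4* and *Ddx18* the shared sign is that of the average of their probe sets and does not hold for each probe set. The count was not redone with arrays centered on their medians, where the mean of *Ddx18* in WD44 was 0. The count of 10 thus depends on scaling. None of the 10 genes had a mean beyond 0.12 in either line.

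Between the lines, the difference of their changes (PGK12.1 less WD44) was tested directly, and 0 of 50 genes passed (0% of all genes). PGK12.1 pools double and single RNAi here, while WD44 had single RNAi only. The lines also differ in array medians, at 6.15 to 6.48 in PGK12.1 experiments 1 to 3 and 8.03 to 8.08 in WD44. PGK12.1 experiment 4 (8.20 to 8.21) lay near WD44, and the part of array scale was not tested. At an unadjusted p under 0.05 there were 3 of 50, beside 21% of all genes. *Rrs1* differed by 0.35 (95% interval 0.135 to 0.565, adjusted p = 0.104), *Gnl3* by 0.20 (adjusted p = 0.178) and *Gar1* by -0.19 (adjusted p = 0.22). In PGK12.1 experiment 4 these genes had changes of -0.17, -0.03 and 0.15, the values of that line nearest to WD44. With the single RNAi experiments of PGK12.1 alone, 1 of 50 genes had an unadjusted p under 0.05, beside 16.7% of all genes. That gene was *Rrs1*, with a difference of 0.32 (adjusted p = 0.249), while *Gnl3* had 0.16 (adjusted p = 0.385) and *Gar1* -0.14 (adjusted p = 0.479). Under the trend and robust settings the difference of *Rrs1* passed (adjusted p = 0.0323), as did 3.62% of all genes. The intervals of 48 of 50 differences lay inside ±0.5, beside 87.8% of all genes, with *Rrs1* and *Utp18* beyond it, so a difference of 1.41-fold between the lines was within the interval of these 2 genes.

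Double and single RNAi in PGK12.1, which differ in both siRNA amount and time, gave 0 of 50 calls each, beside 3.6% and 0.771% of all genes. Their array medians differed too, at 6.15 to 6.21 for double RNAi and at 6.47 to 6.48 and 8.20 to 8.21 for single RNAi. At an unadjusted p under 0.05, 3 of 50 genes stood out after double RNAi (*Npm1*, *Ddx18* and *Imp3*, beside 21.7% of all genes) and 2 of 50 after single RNAi (*Rrn3* and *Mrto4*, beside 13.9%). The difference of double minus single RNAi was called for 0 of 50 genes (0% of all genes), and 1 of 50 had an unadjusted p under 0.05, beside 8.88%. That gene was *Imp3*, with a difference of 0.27 (95% interval 0.015 to 0.525, adjusted p = 0.534). Its changes were 0.33 and 0.04 after double RNAi and -0.01 and -0.16 after single RNAi. The other 49 intervals of double minus single RNAi lay inside ±0.5, as did 90.8% of those of all genes.

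MYC and its partner MAX bind the E-box, spelled CACGTG, which reads the same on both strands. RefSeq promoter sequences (GRCm38.p6, from 250 bases before to 50 after the start) were at hand for 43 of the 50 genes. Of these, 8 (18.6%) held an E-box, beside 8.09% of all 27025 genes with such a sequence. Those 27025 were not chosen by expression, while the listed genes were all well expressed, so the sets are unlike. The 8 were *Imp4*, *Ltv1*, *Nop2*, *Pes1*, *Rrn3*, *Utp18*, *Utp20* and *Wdr43*. *Rrn3* and *Utp18* are shown since they had the highest means of the 8 in PGK12.1, and *Nop2* since it had the lowest; capitals mark the E-box in 30 bases, 5′ to 3′ on the strand of the gene.
Rrn3, chr16:13780472-13780501 (+), 215 bases before the start: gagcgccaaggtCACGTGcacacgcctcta
Rrn3, chr16:13780639-13780668 (+), 48 bases before the start: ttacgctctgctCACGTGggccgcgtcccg
Utp18, chr11:93885769-93885798 (-), 20 bases before the start: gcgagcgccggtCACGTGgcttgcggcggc
Nop2, chr6:125131811-125131840 (+), 60 bases before the start: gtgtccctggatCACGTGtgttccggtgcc

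The genes with an E-box had a median change of 0.01875 in PGK12.1 and -0.015 in WD44, and the other 35 had -0.0075 and -0.015. A match of these letters is a description of the sequence and says nothing of binding in these cells. The MYC family itself (10 genes tested) had 0 calls in either line. *Mycn* had the largest mean in PGK12.1 (0.12, adjusted p = 0.167) and -0.03 in WD44, and *Myc* had 0.06 and 0.035.

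Some members host snoRNAs in their introns, and 4 of the 24 snoRNA genes that RefSeq places inside 7 members have a named probe set. They are *Snora75* and *Snord82* in *Ncl*, *Snord57* in *Nop56* and *Snord53* in *Wdr43*, of the class that guides RNA modification. *Snora75* had changes of 0.67, 0.48, 0.13 and -0.32 in PGK12.1 and -0.30 and -0.13 in WD44, a spread far wider than that of its host. Its mean in PGK12.1 was 0.24 (95% interval -0.05 to 0.53, adjusted p = 0.312). *Snord82* ranged from -0.24 to 0.60, *Snord53* from -0.38 to 0.36 and *Snord57* from -0.32 to 0.22 over the 6 experiments. In experiment 1 of PGK12.1 all 4 were above 0 (0.19 to 0.67), where their hosts had -0.05 to 0.02. All 4 were below 0 in PGK12.1 experiment 4 (-0.38 to -0.03), where the hosts had -0.01 to 0.05. The same held in WD44 experiment 1 (-0.32 to -0.24), where the hosts had -0.06 to 0.03. No snoRNA passed the test in either line.

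**Figure D5:**
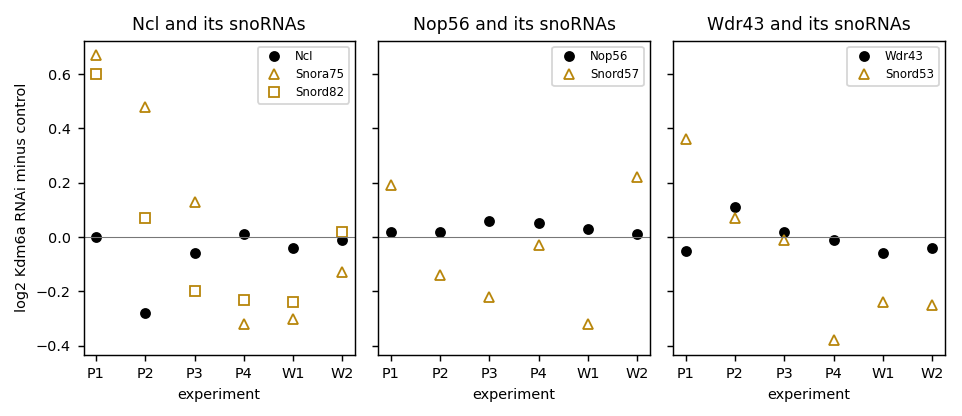
Log2 change (*Kdm6a* RNAi minus control) of the snoRNAs with a probe set (open symbols) and of their host genes (black) in PGK12.1 experiments 1 to 4 (P) and WD44 experiments 1 and 2 (W). The snoRNAs range from -0.38 to 0.67, and the hosts from -0.28 to 0.11.

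Other genes of the same pathway, 104 tested genes from 4 lists (RNA polymerase I, small subunit, large subunit and snoRNP assembly), gave 0 calls in each line and 0 for the difference. Their median change was 0.024 in PGK12.1, where 68 of 104 were above 0 (53.2% of all genes were), and -0.045 in WD44, where 74 were below 0 (50.6% of all genes). The difference between the lines was above 0 for 78 of 104 (median 0.055), beside 53.3% of all genes (median 0.015) and 30 of 50 of the listed genes (median 0.025), sizes near the shift that centering the arrays gave. The smallest adjusted p-values were those of *Nol6* (-0.165, adjusted p = 0.083) and *Utp23* (0.158, adjusted p = 0.093) in PGK12.1, and of *Fcf1* (-0.24, adjusted p = 0.166) in WD44, all 3 factors of the small subunit. *Mphosph10*, a partner of *Imp3* and *Imp4*, had -0.265 in WD44 (adjusted p = 0.179). Of 80 cytosolic ribosomal protein genes, 55 were tested and 0 called. Their means were below 0 for 45 of 55 in PGK12.1 (median -0.028), beside 45.7% of all genes, and for 35 of 55 in WD44 (median -0.02), beside 50.6%. After single RNAi of PGK12.1, 53 of 55 were below 0 (median -0.0575, beside 46.6% of all genes) and 0 were called. After double RNAi 29 were below and 25 above 0 (median -0.0008) with 0 called, where 39 of 55 were above 0 in experiment 1 and 40 below 0 in experiment 2.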

How the data were processed

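RNA of 12 samples was hybridized to Affymetrix mouse arrays. The deposited log2 values are RMA values, a normalization that the methods credit to a Bioconductor package; Affymetrix Expression Console is named for the raw array files. The sources used here give no versions and do not say which arrays shared a normalization. No normalization was added. Gene symbols came from GEO's annotation of the platform: 21789 of 35556 probe sets had 1 gene, 1621 several and 12146 none. Where a gene had several probe sets their log2 values were averaged, and 4629 genes with a mean linear value under 0.1 of the array mean were left out. Depth does not apply to arrays, and their number limits the precision.

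The sample labels gave groups and experiment numbers. Tests used limma 3.58.1 in R 4.3.3 over all 12 arrays, with 1 *Kdm6a* RNAi effect per line (4 residual and 5.66 prior degrees of freedom), or 1 per line and RNAi schedule (3 and 5.48), and a block for the experiment, because control and *Kdm6a* RNAi arrays carry the same number in the labels and the study used paired tests. The pairing was checked by correlating the deviations of both arrays of an experiment from their group means, which gave r = 0.828, 0.846, 0.915 and 0.972 for PGK12.1 (these include the array scales) and 0.265 for WD44. P-values were Benjamini-Hochberg adjusted over all 15309 genes, at a threshold of 0.05, and the fit was tested on simulated data. Percent changes come from the mean log2 change, except those of *Kdm6a*, which are means of the percent change of each experiment. Alternatives were the minimum level, the block, limma's trend and robust options, single probe sets, identical probe sets counted once (chosen after seeing the data), median centring, quantile normalization, the methods' paired t-test, double or single RNAi experiments of PGK12.1 alone, and leaving out each experiment. Members and lists were chosen with earlier results of these data known. Genes named in full are *Kdm6a*, those called, the 3 largest rises and falls alike in sign per contrast, the gene of smallest p in each role, the box C/D, box H/ACA and PeBoW proteins and up to 4 genes of other lists; the other members were named with their values afterwards. Sequences are RefSeq's. Plots used Python 3.11.15 and matplotlib 3.10.9.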

Additional observations from a re-analysis of the deposited data

Results flagged for a closer look

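In 2 of the 50 genes, 1 PGK12.1 experiment lay apart from the other 3 by Dixon's criterion. *Tcof1* had a change of -0.03 in experiment 1, against 0.02 to 0.03 in the others. *Ddx21* had -0.02 in experiment 3, against 0.05 to 0.06 in the others. Chance flags about 1 in 20 genes this way, and both gaps are small on the log2 scale.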

How the results depend on the processing

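Of 98 recomputed counts of called ribosome biogenesis genes, 95 were 0. The other 3 came from limma with the trend and robust options, with 1 gene higher in PGK12.1 (*Rrn3*), 1 lower in WD44 (*Rrs1*) and 1 differing between the lines (*Rrs1*), where all genes gave 1101, 10 and 554 such calls; the cause was not tested. With no replicate block, which ignores the pairing of arrays within an experiment, 0 of all genes tested were called in each comparison. The methods' paired t-test also called 0 of all genes. So did most settings for WD44, for the difference between the lines and for double minus single RNAi. A count of 0 was fixed in such settings and shows no stability. The median change in PGK12.1 was -0.00375, -0.02375 with arrays centered on their medians, and 0 to 0.0117 without each PGK12.1 experiment in turn. Its sign is thus not settled. The median in WD44 was -0.0175, 0.0275 with centered arrays, and -0.0594 and 0.02 without WD44 experiments 1 and 2, which are the medians of the 1 experiment left and so show no stability. Of 862 recomputed changes of 26 named genes, 3 passed the threshold (those above) and 28 had the other sign without passing it. Many of these settings cannot move a change, such as leaving out an experiment of the other line or altering only the test. The 28 of 862 are therefore no measure of how stable the signs are. *Kdm6a* in PGK12.1 lost its call with no replicate block (adjusted p = 1) and under the methods' paired t-test (adjusted p = 0.153), and in WD44 it passed at the stricter minimum of 0.25 (adjusted p = 0.0227), trend and robust options (0.00279), quantile normalization (0.0242) and without PGK12.1 experiment 4 (0.0157). With 2 experiments the intervals in WD44 reached 0.142 to either side at the median.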
